A study of Mus musculus with 2 samples.

Results

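Mast cells and basophils were sought in macrophage cultures grown from 129Sv mouse bone marrow and profiled by droplet single-cell RNA sequencing, in 1 library of cells treated with Tamm-Horsfall protein (THP) and 1 library of cells given its vehicle. A cell belonged to the group when the carboxypeptidase gene Cpa3, the granule protease gene Mcpt8 and the IgE receptor β chain gene Ms4a2 together made at least 10 of every 10000 of its UMIs (unique molecular identifiers, each standing for 1 captured RNA molecule). The rule was met by 104 of 23101 kept cells. The THP library held 58 of its 12123 kept cells, or 0.478% (0.363% to 0.618%), and the vehicle library 46 of its 10978, or 0.419% (0.307% to 0.559%). These intervals are exact (Clopper-Pearson) 95% binomial intervals, and like every interval given here they cover counting error only. Both cultures were grown from bone marrow with 50 ng/ml M-CSF, the growth factor of macrophages, and 10% fetal bovine serum. From day 7, for 18 h, one was given THP at 1 µg/ml, in a truncated form that does not polymerize, and the other 5% dextrose. THP is a protein that the kidney tubule secretes. With 1 library in each group there was no replicate check and no test was made. Treatment cannot be told apart from culture dish, animal or library preparation.

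Mast cells and basophils are granulocytes of the allergic response. Both carry the high-affinity IgE receptor, whose crosslinking by antigen releases stored histamine and granule proteases and starts the synthesis of leukotrienes and cytokines such as interleukin 4. Both need the transcription factor Gata2 and descend from granulocyte and monocyte progenitors of the marrow, but basophils leave the marrow mature, carry the proteases encoded by Mcpt8 and Prss34 and turn over within days, whereas mast cells mature in tissues under Kit signalling and fill their granules with chymases and tryptases.

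The genes of the rule lie on different chromosomes, and the stretch just before the start of 3 of the group's leading genes is shown because Gata2, which binds the core letters GATA, was read in most of the same cells. Each line gives the 250 bases before the RefSeq start (GRCm38.p6) in the direction of transcription, and capitals mark the hexamer AGATAA on either strand, its form with a last G, AGATAG, its form with a first T, TGATAA, and the form with both changes, TGATAG.
Cpa3 promoter, chr3:20242182-20242431, minus strand: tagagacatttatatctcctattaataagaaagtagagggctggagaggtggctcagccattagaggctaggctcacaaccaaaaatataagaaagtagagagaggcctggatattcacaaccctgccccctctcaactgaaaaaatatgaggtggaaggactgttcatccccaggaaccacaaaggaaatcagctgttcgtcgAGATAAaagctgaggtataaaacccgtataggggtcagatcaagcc
Ms4a2 promoter, chr19:11623720-11623969, minus strand: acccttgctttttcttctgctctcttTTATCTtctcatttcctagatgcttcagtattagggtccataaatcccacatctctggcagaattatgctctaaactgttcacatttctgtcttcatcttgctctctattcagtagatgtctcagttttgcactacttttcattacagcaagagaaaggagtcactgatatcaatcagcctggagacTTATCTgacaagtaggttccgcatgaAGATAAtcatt
Prss34 promoter, chr17:25298144-25298393, plus strand: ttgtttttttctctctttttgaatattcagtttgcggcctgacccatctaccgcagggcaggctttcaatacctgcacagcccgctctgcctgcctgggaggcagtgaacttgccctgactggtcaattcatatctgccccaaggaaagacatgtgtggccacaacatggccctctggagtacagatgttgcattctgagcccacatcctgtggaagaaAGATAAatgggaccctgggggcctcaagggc
The Cpa3 stretch held 1 such hexamer, beginning 46 bases before the start, the Prss34 stretch held 1, beginning 31 bases before it, and the Ms4a2 stretch held 3, beginning 224, 37 and 11 bases before it. The matching stretch of Mcpt8 held none; it overlaps the Mcpt8 gene as GENCODE M21 places it and is therefore not printed. Of all 32851 promoters in the table, 8718 (26.5%) held a hexamer. Among the 20 genes that stood highest in the group over other cells, 18 had a promoter in the table and 13 of these had a hexamer in at least 1 promoter; counted by promoter it was 14 of 28 (50%). A match of letters describes the sequence only and shows neither binding nor its absence.

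Identity of the cells was examined first. Because the rule used these same cells, what follows on their levels is a description. Cpa3 (ENSMUSG00000001865, chromosome 3, 20215620 to 20242181, minus strand in GENCODE M21) was read in 57 of 58 THP cells and 46 of 46 vehicle cells of the group. Mcpt8 (ENSMUSG00000022157, chromosome 14, 56082166 to 56085273, minus strand) was read in 47 and 22 of them, and Ms4a2 (ENSMUSG00000024680, chromosome 19, 11615523 to 11623719, minus strand) in 46 and 26. All 3 were read in 43 THP cells and 19 vehicle cells, and Cpa3 alone of the 3 in 9 and 17. Nearly every cell of the group held Cpa3, and the vehicle library held the larger share of cells with no other rule gene. Gata2 (ENSMUSG00000015053, chromosome 6, 88193891 to 88207032, plus strand), which the rule did not use, was read in 53 of 58 and 39 of 46 cells.

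Cells lay on both sides close to the limit of 10, as the plot of the rule's sum against depth shows. The lowest sums inside it were 10.2 in both libraries and the highest outside were 9.39 (THP) and 9.85 (vehicle). Between 5 and 10 lay 17 and 16 further kept cells, and 6 and 8 cells of the group lay under 20. No cell of the group rested on fewer than 3 UMIs of the rule's genes; the median was 87 UMIs in THP cells and 45 in vehicle cells. Of all UMIs of the 3 genes in kept cells, 91.7% and 82.5% were in the group, while 268 and 300 other kept cells held at least 1. The cells were shallower than the rest, with medians of 5374 (THP) and 8736 UMIs (vehicle) against 16154 and 17271 in other kept cells, and all 58 and 46 together gave 452329 and 520127 UMIs. The libraries shared 42 cell barcodes, none of them in the group.

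**Figure D1:**
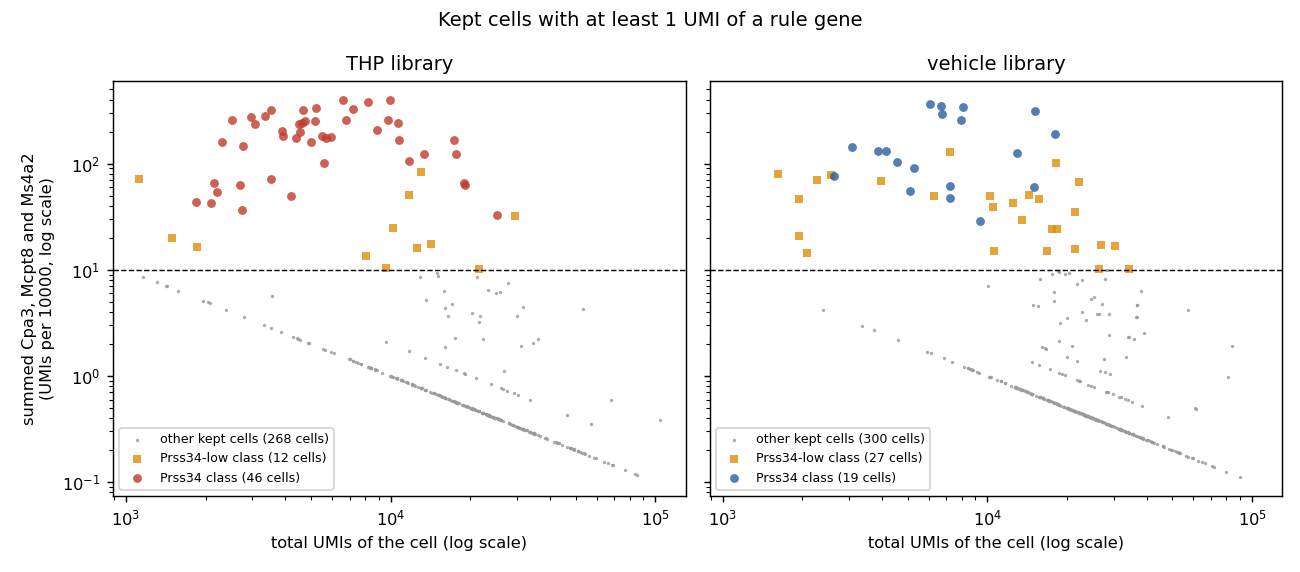
Summed Cpa3, Mcpt8 and Ms4a2 per 10000 UMIs against total UMIs, on log axes, for every kept cell with at least 1 UMI of these genes, by library; the dashed line is the rule's limit of 10. Circles and squares are the 58 THP and 46 vehicle cells of the group, by class, and grey points are the 268 and 300 other cells, whose sums reach 9.39 and 9.85.

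Shares of cells with a UMI were set beside those in a cell type that should lack the genes. In C1q cells, macrophages chosen by summed C1qa, C1qb and C1qc of at least 30 per 10000 UMIs, Cpa3 was read in 4 of 689 THP cells (0.581%) and 0 of 568 vehicle cells, although these cells had medians of 17436 and 18827 UMIs. A count of 0 in 568 allows a share of up to 0.528%. Gata2 was read in 0.290% and 0.704% of C1q cells and in 91.4% and 84.8% of the group. With every cell thinned to 2000 UMIs, which left out 4 THP and 3 vehicle cells of the group, Gata2 was read in 70.4% and 57.5% of the group and in 0.0199% and 0.0751% of C1q cells. Ms4a2, likewise thinned, was read in 70.9% and 49.5% of the group and in 0% and 0.0205% of C1q cells.

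Levels are given as CPM, the UMIs of a gene per 1e6 UMIs summed over the cells, with exact Poisson 95% intervals in brackets. Genes were compared between the group and all other kept cells on log2 of CPM + 10, which understates the difference of genes that are near 0 in one of them. Of 3918 genes with at least 50 CPM, 211 (5.39%) were at least 2-fold higher in the group in both libraries and 247 (6.3%) at least 2-fold lower. By the lower of their 2 library folds the leading genes were Prss34 (log2 10.33 in THP and 8.61 in vehicle), Mcpt8, Cpa3, Ms4a2, Gata2, Fcer1a, Cd200r3, Csrp3, Cyp11a1 and Ikzf2. Tespa1, Fut8, Csf2rb2, Hgf, Hdc, Ifitm1, Cuedc1, Nedd4, Cbfa2t3 and Dapp1 completed the first 20, down to a log2 of 2.68. Several have known roles in these cells: Fcer1a encodes the IgE-binding chain of the receptor, Cd200r3 an activating receptor of basophils and mast cells, Hdc the enzyme that makes histamine, and Csf2rb2 the β chain of the mouse interleukin 3 receptor. Csf2rb2 and its neighbour Csf2rb are near-identical, so reads may have been split between them and their values are uncertain.

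The basophil list stood high in the group. All 6 basophil markers with enough UMIs, Mcpt8, Prss34, Cd200r3, Il4, Ifitm1 and Cebpa, were at least 2-fold higher in the group than in other cells in both libraries; without Mcpt8, which the rule used, it was 5 of 5. Mcpt11 was not analysed here, and Csf1 (18 and 9 UMIs in the group) and Itga2 (5 and 6 UMIs) were too low to count. Of the 6 counted markers only 1 reached 50 CPM in other kept cells. The others entered through their level in the group, so these counts describe the group and give no independent support. Prss34 stood at 13417 CPM (13082 to 13759) in THP cells of the group and 3957 CPM (3788 to 4131) in vehicle cells, against 0.464 and 0.174 CPM in other kept cells. Cebpa, a myeloid transcription factor that basophils keep, stood at 393 and 260 CPM against 17.5 and 34.8 CPM. Of 14 markers that mast cells and basophils share, 13 were at least 2-fold higher in the group, or 11 of 12 without the rule's genes Cpa3 and Ms4a2. The exception was Fcer1g, the signalling γ chain that macrophages also use, at 1930 and 1273 CPM in the group and 2174 and 1644 CPM in other cells. Only 4 of these 14 reached 50 CPM in other kept cells, so the same limit holds for this count.

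The 16 mast cell markers were near or at 0. None reached 50 CPM in either library, and 11 of them had no UMI in any cell of the group, among them the chymase genes Cma1 and Mcpt4 and the tryptase genes Tpsb2 and Tpsab1. With 452329 and 520127 UMIs, a count of 0 allows up to 6.63 CPM in THP cells and 5.77 CPM in vehicle cells. Kit, the stem cell factor receptor of mast cells and progenitors, had 1 UMI in THP cells and 17 UMIs in 8 vehicle cells, that is 2.21 and 32.7 CPM, against 7.13 and 18.4 CPM in other kept cells. Mitf, a mast cell transcription factor, had 3 and 9 UMIs. Because no gene particular to mast cells was read at 50 CPM, the cells are called below the Cpa3-high cells, after the gene of the rule that was read in most of them, although 1 THP cell had no Cpa3 UMI.

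Markers of other lineages differed between parts of the group. All 11 macrophage markers with enough UMIs were at least 2-fold lower in the Cpa3-high cells than in other cells in both libraries, and no Cpa3-high cell met the rule for C1q cells. Their summed level was 6413 and 5889 CPM against 18350 and 14485 CPM in other kept cells. Neutrophil markers were at least 2-fold lower for 5 of 8, and 2 THP cells and 4 vehicle cells met the rule for neutrophil cells (S100a8, S100a9 and Retnlg at 100 or more per 10000 UMIs). Lyz2, lysozyme of macrophages and neutrophils, stood at 5204 and 4966 CPM against 14235 and 10989 CPM in other cells. Lymphoid, dendritic and stromal lists held 1 gene at 50 CPM in Cpa3-high cells, the MHC class II gene H2-Ab1. Prg2, the eosinophil major basic protein, had 530 UMIs in 2 THP cells, 520 of them in 1 cell, and none in vehicle cells, while the eosinophil peroxidase gene Epx had none in either. That single cell reached 928 Prg2 UMIs per 10000.

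Genes of granulocyte progenitors were read in many of the cells, but the list of stem and progenitor markers did not stand high as a whole. Of its 8 genes with enough UMIs, 3 were at least 2-fold higher than in other cells in both libraries and 2 at least 2-fold lower. Over all genes 5.39% were higher and 6.3% lower. Mpo, myeloperoxidase, had at least 1 UMI in 40 of 58 THP and 36 of 46 vehicle cells, against 32.9% and 46.5% of the deeper C1q cells, and after thinning in 56.7% and 60.8% against 6.29% and 7.66%. Its level was 1386 and 2144 CPM in Cpa3-high cells, 601 and 1045 CPM in other kept cells and 4743 and 5433 CPM in progenitor cells, which were chosen by summed Mpo and Elane at 10 or more per 10000 UMIs. Of the Cpa3-high cells, 17 and 20 met that rule too. Ctsg, the granule protease cathepsin G, was at least 2-fold higher than in other cells in both libraries, at 1587 and 1663 CPM against 363 and 592 CPM. Elane, neutrophil elastase, was lower than in other cells, at 197 and 292 CPM against 485 and 808 CPM.

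The Cpa3-high cells fell into 2 classes by Mcpt8 and Prss34, as the plot of single cells shows. Cells with at least 10 UMIs of the pair per 10000 are called the Prss34 class and the others the Prss34-low class. The division was set after the values were seen, so the genes that separate the classes are a description. Only 4 cells in each library lay between 5 and 20, and 10 of 12 THP and 24 of 27 vehicle cells of the Prss34-low class had no UMI of either gene. The Prss34 class made up 79.3% of the group with THP (46 of 58, 66.6% to 88.8%) and 41.3% with vehicle (19 of 46, 27.0% to 56.8%). The Prss34-low cells were deeper, with medians of 10977.5 and 13488 UMIs against 4880 and 6710. They supplied most of the vehicle UMIs, 371150 against 148977, and the smaller part of the THP UMIs, 134921 against 317408.

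**Figure D2:**
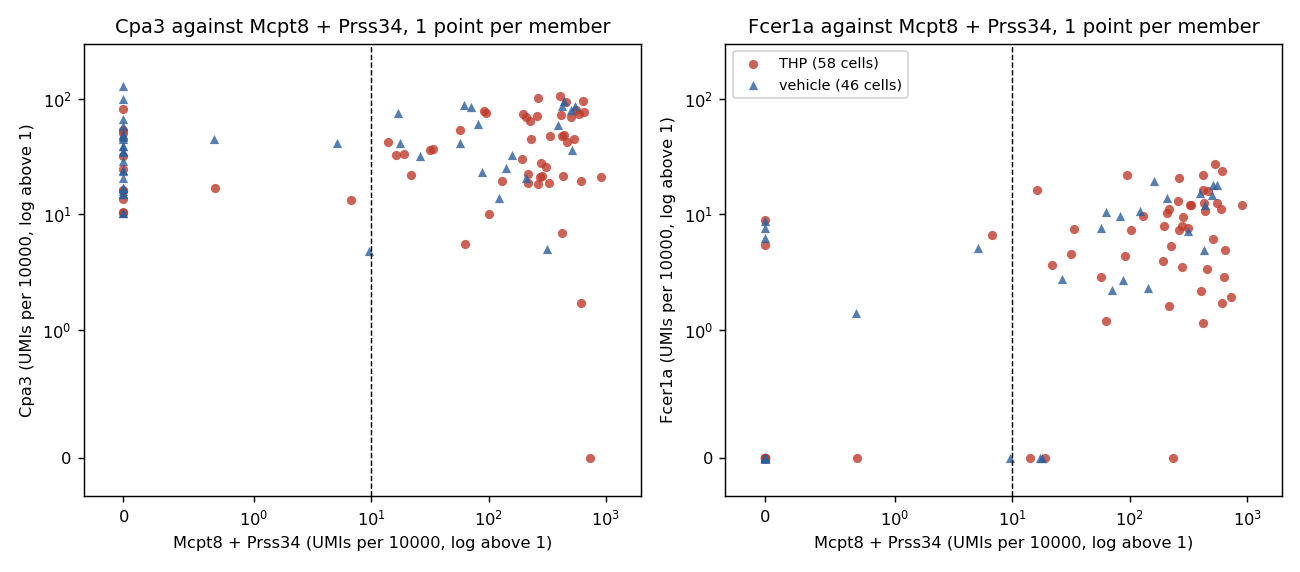
Cpa3 (left) and Fcer1a (right) against summed Mcpt8 and Prss34, all in UMIs per 10000 of the cell and on axes that are logarithmic above 1, with 1 point for each of the 58 THP and 46 vehicle cells; the dashed line at 10 divides the classes. The Cpa3 values of the classes overlap, whereas Fcer1a is at 0 in 9 of 12 THP and 22 of 27 vehicle cells of the Prss34-low class.

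Cells of the Prss34 class carried the granule proteases together with the IgE receptor genes. Mcpt8 made 5.43, 132 and 357 UMIs per 10000 in the lowest, median and highest THP cell and 4.39, 53.0 and 268 in vehicle cells. Mcpt8 and Prss34 together, by rule at least 10, reached a median of 278 and a highest value of 910 in THP cells and 142 and 550 in vehicle cells, so the ranges of the libraries overlapped. Fcer1a was read in 43 of 46 and 17 of 19 cells, Ms4a2 in 44 and 18, and Gata2 in 44 and 18. Other genes that led this class over the Prss34-low class were Ets1, Igfbp7, Poln, Tspan13, Serpine2, Egr1 and Slc18a2, the vesicular transporter that loads histamine into granules. Slc18a2 stood at 113 and 175 CPM in the Prss34 class, 7.41 and 16.2 CPM in the Prss34-low class and 0.562 and 1.14 CPM in other kept cells.

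Cells of the Prss34-low class shared Cpa3 with the others but little of the receptor. Cpa3 had a median of 16.6 UMIs per 10000 in THP cells (10.2 to 82.6) and 35.2 in vehicle cells (4.81 to 129), against medians of 39.6 and 41.8 in the Prss34 class. Summed, Cpa3 stood at 2861 and 3303 CPM, compared with 4.77 and 5.83 CPM in progenitor cells that were outside the group. Gata2 was read in 9 of 12 and 21 of 27 cells, at 200 and 199 CPM, and Cd200r3 in 12 of 12 and 24 of 27, at 437 and 245 CPM. Fcer1a stood at 22.2 and 48.5 CPM and Ms4a2 at 22.2 and 110 CPM, where the Prss34 class had 791 and 893 CPM and 1188 and 1208 CPM. Hdc was at 96.4 and 78.1 CPM against 239 and 423 CPM, and the interleukin 33 receptor gene Il1rl1 at 0 and 29.6 CPM against 107 and 141 CPM.

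The 12 leading genes of the Prss34-low class over the Prss34 class were Itga1, Ms4a6c, Emb, Mgst1, App, Cd34, Cfp, Gatm, Mt1, Nt5dc2, Pf4 and Phgdh. Cd34, a marker of progenitors, stood at 193 and 159 CPM, against 18.9 and 33.6 CPM in the Prss34 class, 24.2 and 35.3 CPM in progenitor cells and 1.65 and 3.32 CPM in C1q cells. Itga1, the α1 integrin that binds collagen, stood at 267 and 668 CPM, against 59.9 and 47.0 CPM in the Prss34 class and 81.5 and 115 CPM in progenitor cells. For both genes the Prss34-low class was above progenitor cells and C1q cells in both libraries. Ms4a6c was at 563 and 477 CPM, against 362 and 291 CPM in C1q cells. Summed macrophage markers were also higher in this class, at 15261 and 7016 CPM, than in the Prss34 class, at 2653 and 3081 CPM, and in the THP library they came near the 18350 CPM of other kept cells, against 14485 CPM in the vehicle library. Per cell they had medians of 116 and 39.6 UMIs per 10000 in the Prss34-low class and 15.4 and 13.0 in the Prss34 class. Their part in these differences was not tested.

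The Prss34-low class was itself not uniform. Ms4a2 was read in 2 of its 12 THP cells and 8 of its 27 vehicle cells, and those cells had medians of 1308.5 and 5123 UMIs, ranging from 1119 to 1498 and from 1620 to 14317. The 10 and 19 cells without Ms4a2 had medians of 12141 and 17540 UMIs and ranged from 1847 to 29476 and from 1939 to 34345, so the depths overlapped in the vehicle library. Among these cells Fcer1a was read in only 1 of 10 and 1 of 19, while Gata2 was read in 8 and 13 and Cd200r3 in 10 and 17. Mpo was read in 5 of the 10 THP and 15 of the 19 vehicle cells without Ms4a2. It was not particular to them: in the Prss34 class only 11 of 46 THP and 2 of 19 vehicle cells had no Mpo UMI. The rule for progenitor cells was met by 16 of 46 and 8 of 19 cells of the Prss34 class. In the Prss34-low class 1 of 12 and 12 of 27 cells met it.

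**Figure D3:**
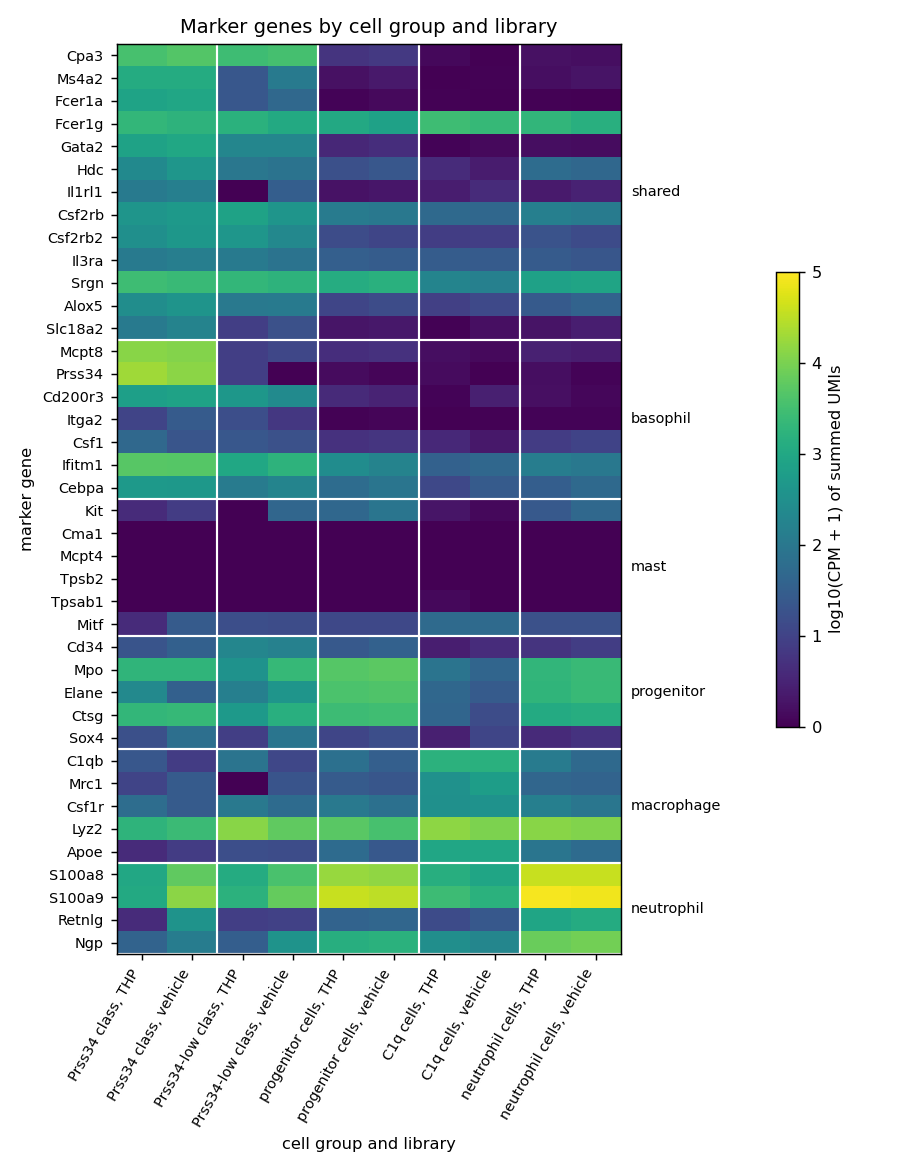
Level of marker genes, as log10 of CPM + 1 of summed UMIs, in the 2 classes of Cpa3-high cells, in progenitor cells, in C1q cells and in neutrophil cells of each library, with genes grouped by marker list. Prss34 and Mcpt8 are bright in the Prss34 class alone, Cpa3 in both classes, and the chymase and tryptase genes are dark throughout.

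IgE receptor genes were examined next, since this receptor defines the effector role of both cell types. Of 15 of the 19 listed genes with enough UMIs, 3 were at least 2-fold higher in Cpa3-high cells than in other cells in both libraries: Fcer1a, the rule's own Ms4a2 and the adaptor gene Lat2. Fcer1a and Ms4a2 did not reach 50 CPM in other kept cells and were counted through their level in the group. For this list and the granule list below, the shares over all genes were 5.39% higher and 6.3% lower. Lat2 stood at 356 and 311 CPM against 128 and 121 CPM. The kinases that start the signal were within 2-fold of other cells, with Syk at 73.0 and 63.4 CPM and Lyn at 92.9 and 98.1 CPM against 148 and 168 CPM. Of the granule list, 7 of 8 were at least 2-fold higher, or 5 of 6 without the rule's genes, including Srgn, the proteoglycan core that packs proteases, at 2558 and 1903 CPM against 382 and 475 CPM. Only 3 of the 8 reached 50 CPM in other kept cells, so most were counted through their level in the group. Alox5, which starts leukotriene synthesis, was also higher, at 232 and 186 CPM against 10.7 and 22.6 CPM, whereas Ltc4s, the next enzyme towards leukotriene C4, had 1 and 0 UMIs and Hpgds, the prostaglandin D2 synthase, 5 and 7.

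Interleukin 4 and interleukin 6 transcripts were concentrated in these few cells. Il4 had 30 UMIs in 22 of 58 THP cells and 17 UMIs in 12 of 46 vehicle cells, which was 76.9% and 68.0% of all Il4 UMIs in the kept cells of those libraries. Il4 was read in 0.145% and 0.352% of C1q cells; after thinning, it was read in 18.1% and 12.6% of Cpa3-high cells and in 0.0147% and 0.0294% of C1q cells. Il6 had 28 UMIs in 20 THP cells and 24 UMIs in 13 vehicle cells. In the vehicle library these 24 were 61.5% of all 39 Il6 UMIs, and in the THP library the 28 were 15.6% of 179, so the UMIs outside the Cpa3-high cells differed between the libraries while those inside were close in number. Other cytokine genes of activated mast cells were rare: Il13, Il5, Il3 and Csf2 had no UMI in Cpa3-high cells and Tnf had 9 and 4.

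Transcripts of growth factor, cytokine and danger receptors were examined as well. Of 19 listed receptors with enough UMIs, 7 were at least 2-fold higher than in other cells in both libraries, among them Il3ra and Csf2rb2 of the interleukin 3 receptor, Il1rl1, Il18rap and P2rx7. Another 6 were at least 2-fold lower. The shares over all genes were 5.39% higher and 6.3% lower. Il18rap, a chain of the interleukin 18 receptor, stood at 170 and 146 CPM against 9.48 and 22.1 CPM. Csf1r, the receptor of the growth factor in the medium, was lower, at 73.0 and 46.1 CPM against 244 and 227 CPM. The toll-like receptor gene Tlr4 had 1 and 0 UMIs and Tlr2 had 5 and 5. Cd14, the co-receptor of Tlr4, stood at 92.9 and 90.4 CPM, against 895 and 311 CPM in other cells. Among transcription factors Gata2, Cebpa and Runx1 were at least 2-fold higher in both libraries; Gata1 had 11 and 4 UMIs.

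Some of the cells were in cycle. Summed over 25 genes of G2 and M phase, single cells of the Prss34 class ran from 0 through a median of 12.1 to 178 UMIs per 10000 in THP cells and from 0 through 7.23 to 162 in vehicle cells. None of the 24 genes of this list with enough UMIs was 2-fold apart between Cpa3-high and other cells in both libraries. The proliferation gene Top2a stood at 586 and 742 CPM against 356 and 592 CPM. Immediate early genes, which also respond to handling of cells, were at least 2-fold higher for 4 of 13 and lower for 1. Over all genes 5.39% were higher and 6.3% lower. Egr1, one of the genes that led the Prss34 class, stood at 119 and 133 CPM against 14.4 and 18.9 CPM.

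The comparison of THP with vehicle within the Cpa3-high cells asked how these cells differed between the 2 cultures, and it rests on 58 and 46 cells. Of 3446 genes with at least 50 CPM in a library, 45 (1.31%) were at least 2-fold higher in THP cells and 143 (4.15%) at least 2-fold lower, so 23.9% of them were higher. The median log2 ratio was -0.09 and the central 95% of genes ran from -1.16 to 0.80. With TMM factors the split was 70 and 90 (43.8% higher) and the median 0.04, and with RLE factors 70 and 94 (42.7%) and 0.03. Over the other kept cells the same rule gave 41 (1.25%) higher and 40 (1.22%) lower of 3277 genes, from far more UMIs.

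The 2 classes were mixed in different proportions in the libraries. Genes that mark the classes are given over all cells and within the Prss34 class. The part of the mix in their ratios was not tested. Over all Cpa3-high cells Mcpt8 stood at 8909 CPM (8636 to 9189) with THP and 3326 CPM (3171 to 3487) with vehicle, a log2 ratio of 1.42. Within the Prss34 class it stood at 12693 and 11586 CPM, a log2 ratio of 0.13. Prss34 likewise had a log2 ratio of 1.76 over all cells and 0.47 within the class, at 19117 and 13814 CPM. The class was cut on Mcpt8 and Prss34 after the values were seen, so their smaller ratios within it were partly built in. Fcer1a went from 0.93 to -0.17 and Ms4a2 from 0.97 to -0.02. The log2 ratios of Cpa3 and Gata2 were -0.14 and 0.48 over all cells and -0.38 and -0.34 within the Prss34 class. So within the class the granule and receptor genes were all under 2-fold apart: of 14 shared markers and 6 basophil markers at 50 CPM, none was 2-fold apart there, where 4.9% of 3734 genes were at least 2-fold higher with THP and 11.1% lower. Within the Prss34-low class, with 4.08% of 3600 genes higher and 9.47% lower, Ms4a2 had a log2 ratio of -1.90, on 22.2 and 110 CPM.

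Of the 45 higher genes, 32 had the same sign in both classes, and of the 143 lower genes 134. Both classes were past 2-fold for 9 and 53 of them. The genes were chosen on the ratio over these same cells, so agreement within the classes was partly built in and is no replication. Single cells weighed on several: for 6 of the 45 and 4 of the 143, at least 50% of the UMIs in the library with the higher level came from 1 cell.

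**Figure D4:**
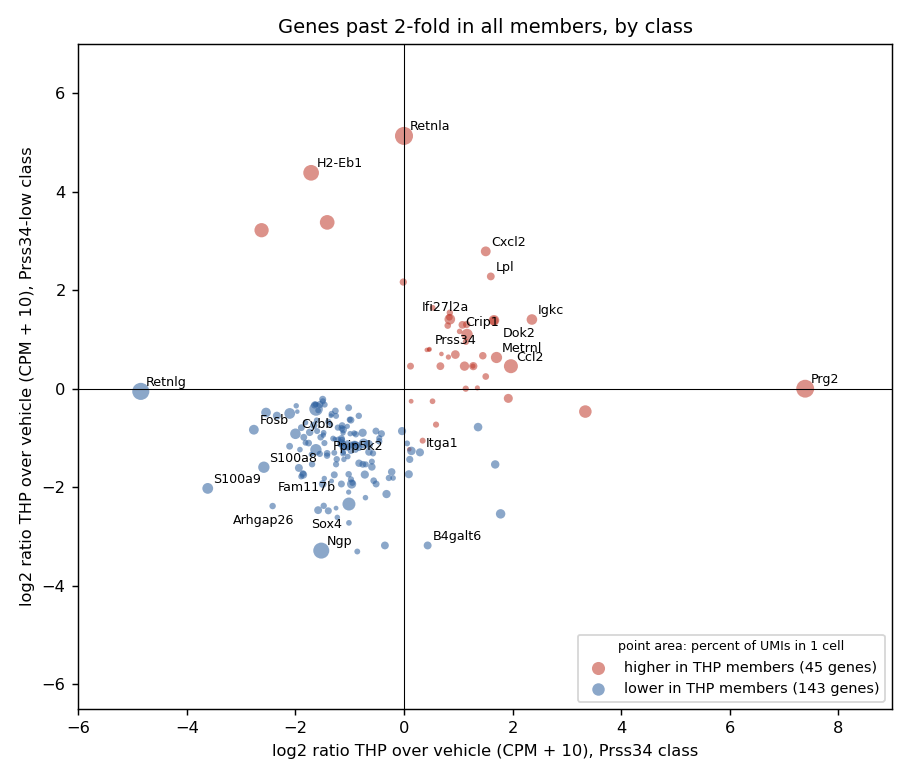
Log2 ratio of THP over vehicle (CPM + 10) within the Prss34 class and within the Prss34-low class for the 45 genes higher and 143 lower over all Cpa3-high cells; the point area grows with the percent of the gene's UMIs that came from 1 cell, and names mark the 12 highest and 12 lowest genes. Most lower genes lie at the lower left; Prg2 and Retnla, with no vehicle UMI, are placed by the added 10 CPM and their positions are no bounds.

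Genes with the largest ratios in the THP cells included 2 that were each read in 1 or 2 cells, Prg2 described above and Retnla, a secreted protein of alternatively activated macrophages, whose 46 UMIs all lay in 1 cell. Chemokine genes followed. Ccl2, which attracts monocytes, stood at 117 CPM (87.8 to 153) against 15.4 CPM (6.64 to 30.3), with 60.4% of its 53 THP UMIs in 1 cell; its log2 ratio of 2.32 was 1.45 without the top cell of each library. Cxcl2, which attracts neutrophils, stood at 81.8 CPM (57.6 to 113) against 9.61 CPM (3.12 to 22.4), with a log2 ratio of 2.23 over all cells, 1.51 in the Prss34 class and 2.79 in the Prss34-low class. It was read in 10 THP cells and 4 vehicle cells. Also among the 12 highest were Dok2, H2-Eb1, Igkc, Metrnl, Lpl, Ifi27l2a and Crip1. Lpl, lipoprotein lipase, and Ifi27l2a, an interferon-stimulated gene, stood at 305 and 427 CPM in THP cells and at 86.5 and 127 CPM in vehicle cells. All 7 had lower CPM in Cpa3-high cells than in other kept cells in both libraries. Igkc, the immunoglobulin κ constant region, stood at 70.7 and 13.5 CPM in Cpa3-high cells and at 1071 and 543 CPM in other kept cells. The part of RNA from surrounding cells in these values was not tested.

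Cytokine and NF-kB genes were set beside those in the other cells of each culture, and the plot shows the ratios of the same genes in both. The 50 CPM limit was applied within each set of cells. The counts and medians given for the sets therefore cover different genes and do not compare the same genes. Of 9 cytokine genes at 50 CPM in Cpa3-high cells, 4 were at least 2-fold higher with THP, Ccl2, Cxcl2, Ccl3 and Ccl6, and none lower, with a median log2 ratio of 0.84. Within the Prss34 class 2 of 10 were higher, 5 had ratios above 0 and 5 below, and the median was 0.12; Ccl6 had a log2 ratio of -0.013 there. Within the Prss34-low class 2 of 6 were higher, with a median of 0.73. In other kept cells 9 of 13 were higher, with a median of 1.81. Over all genes, 1.31% were at least 2-fold higher with THP in Cpa3-high cells and 1.25% in other kept cells. In the Prss34 and Prss34-low classes it was 4.9% and 4.08%. Ccl3, a chemokine that basophils and macrophages release, stood at 807 CPM (726 to 894) against 348 CPM (299 to 403) and was read in 49 of 58 and 28 of 46 Cpa3-high cells. Within the classes its log2 ratios were 0.46 and 0.79, and in other kept cells 2.15. Ccl4 had 106 and 119 CPM in Cpa3-high cells, a log2 ratio of -0.15 whose counting interval on the CPM ratio ran from -0.74 to 0.40, and one of 2.58 in other kept cells. Ccl3 and Ccl4 are close in sequence, so their values are uncertain. Il6 had a log2 ratio of 0.36 (interval -0.42 to 1.27) and Il4 of 0.84 (0.12 to 1.97), which within the Prss34 class was 0.35 (-0.69 to 1.60).

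None of 8 NF-kB target genes at 50 CPM was 2-fold apart between the libraries in Cpa3-high cells, with a median log2 ratio of 0.43 and 6 of 8 above 0. Within the Prss34 class 1 of 8 was at least 2-fold higher with THP, with a median of 0.28, and within the Prss34-low class 4 of 12 were higher and 1 lower, with a median of 0.79. In other kept cells 10 of 14 were at least 2-fold higher with THP, with a median of 1.25. The shares of all genes that were higher were 1.31% in Cpa3-high cells, 4.9% in the Prss34 class, 4.08% in the Prss34-low class and 1.25% in other kept cells. Lower were 4.15% in Cpa3-high cells and 9.47% in the Prss34-low class. With 8 genes, a count of 0 lies near the share over all genes. The genes at 50 CPM differ between these sets of cells. Nfkbia, the inhibitor that NF-kB itself induces, stood at 294 CPM (246 to 348) against 163 CPM (131 to 202), and its log2 ratio was 0.81 against 1.48 in other kept cells. Sod2, the mitochondrial superoxide dismutase, had a ratio of 0.68 against 1.57, and Tnfaip2 of -0.65 against 1.24. Whether the groups of cells differed in response was not tested, and 452329 and 520127 UMIs leave wide intervals on single genes. Cebpb, a transcription factor of the inflammatory response, was past 2-fold, at 391 CPM (336 to 453) against 154 CPM (122 to 191), with log2 ratios of 0.84 and 1.45 in the classes.

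**Figure D5:**
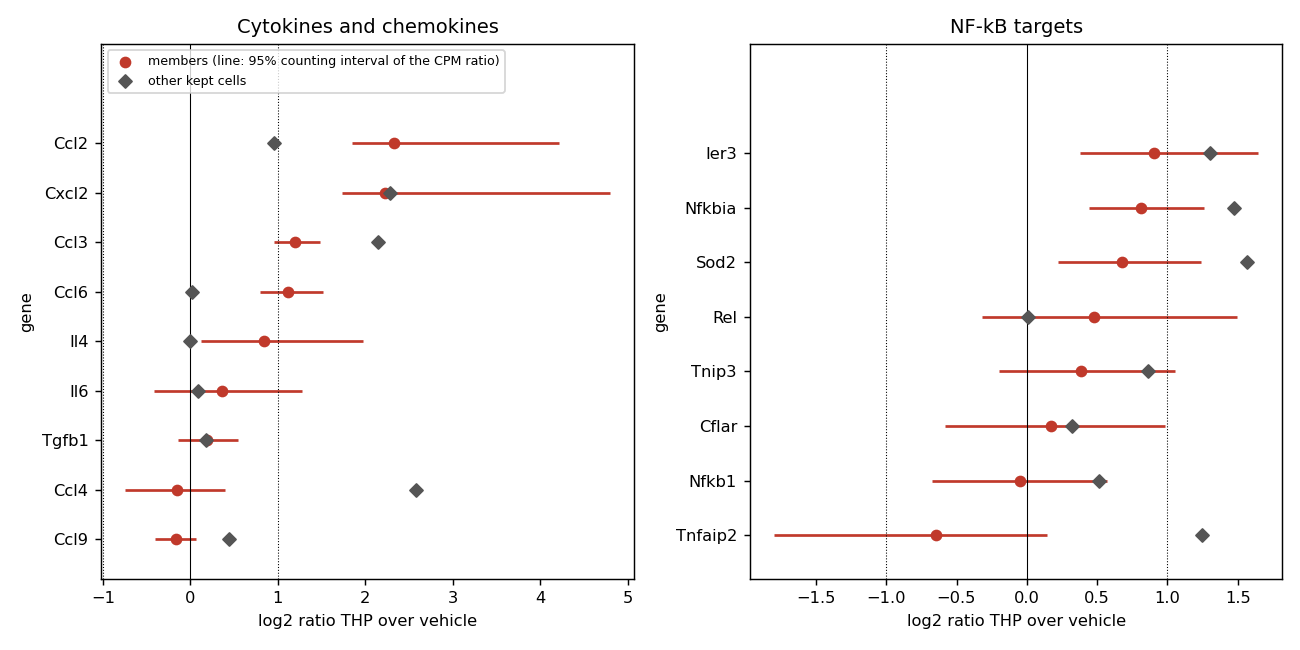
Log2 ratio of THP over vehicle for cytokine genes (left) and NF-kB target genes (right) with at least 50 CPM in Cpa3-high cells; circles are Cpa3-high cells, with lines for the 95% counting interval of the CPM ratio, diamonds are other kept cells and dotted lines mark 2-fold. The diamonds of Ccl4 at 2.58 and of Sod2 at 1.57 lie to the right of the circles at -0.15 and 0.68.

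Neutrophil genes were among those with the lowest ratios. S100a9 stood at 1245 CPM (1144 to 1352) with THP and 8552 CPM (8302 to 8807) with vehicle and S100a8 at 1050 and 4297 CPM; both encode calprotectin chains. Of 7 neutrophil markers at 50 CPM, 5 were at least 2-fold lower with THP, where 4.15% of all genes were. Summed over the list of 10 the level was 2578 CPM against 13581 CPM. In other kept cells 1 of 7 was at least 2-fold lower, where 1.22% of all genes were, at 24212 and 30632 CPM summed. A few cells supplied much of this: 89.7% of the 58 vehicle UMIs of Retnlg, 78.6% of the 159 of Ngp and 35.9% of the 4448 of S100a9 were in 1 cell each. Without the top cell of each library the log2 ratio of Ngp went from -2.80 to -0.95 and that of Retnlg from -3.07 to -0.84, while that of S100a9 went from -2.77 to -2.56. With each cell at equal weight the log2 ratio of S100a9 was -2.13. Neither step takes out all the cells with high levels. Per 10000 UMIs the list summed to 360, 757, 924 and 1539 in 4 vehicle cells and to 166 and 343 in 2 THP cells. The median cell had 13.4 with THP and 13.6 with vehicle, so the summed difference was not seen in the median cell. The ratio without all of these cells was not computed.

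Other genes at the low end were spread over more cells. Sox4, a transcription factor of progenitors, had 6 UMIs in 4 THP cells and 42 UMIs in 16 vehicle cells, a log2 ratio of -1.96 that was -1.58 and -2.47 in the classes. Arhgap26 had 2 UMIs against 39 UMIs in 18 vehicle cells, and Ppip5k2 and Fam117b had 5 and 4 UMIs against 32 and 27. Fosb, an immediate early gene, stood at 35.4 CPM (20.2 to 57.4) against 150 CPM (119 to 187) and at 22.1 against 208 CPM within the Prss34 class. Cybb, the catalytic subunit of the phagocyte oxidase, stood at 81.8 against 308 CPM. Itga1 stood at 122 against 490 CPM over all cells, a log2 ratio of -1.93, but at 59.9 against 47.0 CPM within the Prss34 class and 267 against 668 CPM within the Prss34-low class. Stem and progenitor markers as a list were past 2-fold lower for 1 of 7, Sox4, where 4.15% of all genes were, with a median of -0.56. In the Prss34 class 2 of 6 were past 2-fold higher and 1 lower, where 4.9% and 11.1% of all genes were, with a median of -0.06. In the Prss34-low class 5 of 7 were past 2-fold lower, where 9.47% of all genes were, with Mpo at 348 CPM in 12 THP cells against 2242 CPM in 27 vehicle cells.

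Genes of long and short transcripts differed in their ratios. Over 5 groups of genes of rising transcript length the median log2 ratio was 0.18, 0.04, -0.10, -0.20 and -0.46. With those medians subtracted, 57 genes were higher and 78 lower. Over all Cpa3-high cells none of 23 G2 and M genes and 1 of 16 S phase genes, Mcm6, was past 2-fold. Within the Prss34 class 8 of 23 G2 and M genes were at least 2-fold lower with THP, where 11.1% of all genes were, with a median log2 ratio of -0.70. Within the Prss34-low class 1 of 24 was lower, with a median of 0.18. Of the 14 IgE signalling genes and 15 receptors at 50 CPM over all Cpa3-high cells, none was past 2-fold. Of all genes there, 1.31% were higher and 4.15% lower. In the Prss34 class none of 15 IgE genes was past 2-fold, and of 18 receptors 1 was higher and 2 lower. In the Prss34-low class 1 of 14 IgE genes was lower, and of 14 receptors 3 were higher and 1 lower. All-gene shares were 4.9% higher and 11.1% lower in the Prss34 class, and 4.08% and 9.47% in the Prss34-low class.

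MHC class II genes were past 2-fold higher with THP for 3 of 6 at 50 CPM, where 1.31% of all genes were. They were H2-Ab1, H2-Eb1 and Cd74, with opposite directions in the classes. Single cells held much of this: 75.6% of the THP UMIs of H2-Eb1, 66.2% of those of H2-Ab1 and 62.4% of those of Cd74 were in 1 cell each, as were 80.0% of the 10 vehicle UMIs of H2-Eb1. Without the top cell of each library the log2 ratios were 1.35 for H2-Eb1, 0.43 for H2-Ab1 and 0.62 for Cd74, so H2-Ab1 and Cd74 were no longer past 2-fold. In other kept cells none of the 6 was 2-fold apart, and the median log2 ratio was -0.34.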

How the data were processed

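Each library is 1 Chromium droplet sample with its poly(A) RNA tagged by cell barcode and UMI. The authors deposited UMI counts by gene and barcode, not normalized, from software version 3.1.0 per the file headers; Cell Ranger, STAR and bcl2fastq and the build mm10 are named in the submitters' processing notes. Barcodes were kept with at least 500 genes, at least 1000 UMIs and at most 10% mitochondrial UMIs; of 13193 and 11584 deposited barcodes 12123 and 10978 remained. No doublet caller was run and doublets were not removed. Columns of samples left unused numbered 0.

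UMIs were summed over cells and scaled to CPM in Python 3.11.15 with numpy 2.4.6, pandas 2.3.3 and scipy 1.17.1. Ratios are log2 of CPM + 10, and the size rule asked for 50 CPM in a library and 2-fold. No p-value was computed. TMM factors came from edgeR 4.0.16 and RLE factors from DESeq2 1.42.0 in R 4.3.3, for scaling only. Intervals are exact Poisson, exact binomial or, for ratios, exact conditional binomial, checked on simulated data.

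Named were the rule's markers and Gata2, the 20 genes highest in the group over other cells among those with 100 CPM in both libraries, the 12 highest and 12 lowest ratios of the same sign with each cell at equal weight, and members of the fixed lists. The cells and lists were chosen with earlier results of these data known. The class limit of 10 was set after the values were seen: 20 had been tried first and 5 considered, and the rule's own limit was then kept. Class genes and the results by class or without a top cell were added then too. Gene positions are those of GENCODE M21 on GRCm38 and promoters those of RefSeq.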

Additional observations from a re-analysis of the deposited data

Results flagged for a closer look

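MHC class II genes ran in opposite directions, past 2-fold, in the 2 classes of Cpa3-high cells, and the difference was not tested. The log2 ratio of THP over vehicle was -2.62 in the Prss34 class and 3.22 in the Prss34-low class for Cd74, the invariant chain. It was -1.42 and 3.38 for H2-Ab1, and -1.71 and 4.38 for H2-Eb1. Of the THP UMIs, 62.4% of Cd74, 66.2% of H2-Ab1 and 75.6% of H2-Eb1 lay in 1 cell each.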

How the results depend on the processing

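No paired analysis was possible because each group had 1 library. The shares moved beyond their intervals with a limit of 5 on the rule's sum, to 0.619% in THP and 0.565% in vehicle, and without Cpa3 in the sum, to 0.210% in vehicle. Counts of genes higher and lower moved beyond 1.5 times to 178 and 488 without Cpa3, 69 and 229 with 1 CPM added, 119 and 394 with no minimum, 23 and 65 at a minimum of 100 CPM, 208 and 595 at 1.5-fold, 183 and 413 in the Prss34 class and 147 and 341 in the Prss34-low class. Under TMM (70 and 90) and RLE (70 and 94) factors both moved, and the lower count alone moved to 81 with a limit of 5, 246 at equal weight per cell and 78 with the length correction.

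These log2 ratios changed sign. With a limit of 5: Camp 2.10, Ngp 0.49, Retnlg 0.25. With a limit of 20: Cd74 -1.09, H2-Ab1 -0.75, H2-Eb1 -0.32. Without Cpa3: B4galt6 0.48, Ccl6 -0.38, Cd74 -2.53, H2-Ab1 -1.32, H2-Eb1 -1.63, Irf8 1.68, Itga1 0.38. At equal weight: Cd74 -0.22. In the Prss34 class: B4galt6 0.44, Ccl6 -0.013, Cd74 -2.62, H2-Ab1 -1.42, H2-Eb1 -1.71, Irf8 1.68, Itga1 0.29. In the Prss34-low class: Ets1 -1.23, Igfbp7 -0.73, Mcpt8 -0.25. The cause was not tested.

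Without the cell with most UMIs of each gene, 37 genes passed 2-fold upwards and 144 downwards; 28 and 116 of these belong to the 45 and 143. The Prss34 class made 81.0% and 45.7% of the Cpa3-high cells at a class limit of 5 and 74.1% and 37.0% at 20. Asking for 3 UMIs of the rule's genes, leaving out the 5% of cells with most UMIs, or dropping Ms4a2 from the sum removed no cell of the group and so says nothing on stability. With 1 library per group the depth bounds counting error alone, and spread between cultures is unknown.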

Other observations

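Barcodes outside the cell filter held a similar share of cells that met the rule: 3 of 1070 in the THP library (0.280%, 0.0579% to 0.817%) and 2 of 606 in the vehicle library (0.330%, 0.0400% to 1.19%).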
